A study of Homo sapiens with 6 samples.

Results

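The 10 genes described here are the Fanconi anaemia complementation genes of the core complex (FANCA, FANCB, FANCC, FANCE, FANCF, FANCG, FANCL and FANCM) and its substrate pair (FANCD2 and FANCI). They were picked by name from the 13008 genes of the authors' comparison table, and all 10 were present there and among the 13161 genes with normalised counts. The libraries were polyadenylated RNA from Tet-FLAG-FOXM1c-hTERT-RPE1 cells, a telomerase-immortalised line of human retinal pigment epithelial origin built to express FLAG-tagged FOXM1c, a forkhead transcription factor, from a tetracycline-inducible promoter. The dox group (3 libraries) had 1 µg/mL doxycycline every 24 h over 48 h and is labelled as overexpressing FOXM1. The no dox group (3 libraries) had none and carries a WT genotype label, although the name of the line is the same. Doxycycline given to cells without the transgene was not analysed here, so the drug and the transgene cannot be told apart.

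The Fanconi pathway repairs DNA crosslinks that block replication forks. FANCM and its partners bring the core complex to the stalled fork, and the RING subunit FANCL then attaches a single ubiquitin to FANCD2 and FANCI, which clamps the pair onto DNA and recruits nucleases and recombination factors. Inherited loss of any of these genes except FANCM causes Fanconi anaemia, a syndrome of bone marrow failure and cancer. Several of the genes are transcribed mainly in proliferating cells, with S phase.

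Library totals ran from 15094498 to 49882123 reads, and the 10 genes together took 154, 206 and 178 CPM in dox replicates 1, 2 and 3, while the no dox libraries gave them 224, 247 and 209 CPM. FOXM1 itself stood at 65289 to 74976 normalised counts in dox and 4292 to 5009 in no dox libraries, so the labels of all 6 libraries matched its level. Of 10 retinal pigment epithelium markers 2 reached 1 FPKM, MITF (2.06 to 2.23) and OTX2 (1.91 to 3.14), while RPE65 was at most 0.22 and TTR was listed at 0. Of 6 general epithelial markers 3 did, with KRT18 at 34.6 to 65.2 FPKM but CDH1 at most 0.011 and EPCAM listed at 0. Of 10 mesenchymal markers 6 did, with VIM at 254 to 396 and FN1 at 71.4 to 89.3 FPKM, and no leukocyte marker did. Libraries with the same replicate number deviated from their group means together, so each comparison is also given with that number as a block, that is, within pairs of libraries. The labels do not state separate cultures, and p-values therefore measure only the spread between these libraries, which may be technical.

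FANCI, FANCD2, FANCE and FANCA were lower in dox, with changes from -36.1% to -25.2%. The fit without the block was set as the main one, and of the members only FANCI passed it. FANCD2, FANCE and FANCA passed only with the block, and the other 6 genes passed neither fit. A gene was called when limma gave it a Benjamini-Hochberg adjusted p under 0.05 over 13153 tested genes, all 10 members included. Without the block 1 of the 10, FANCI, fell, against 0.220% of all tested genes, and none rose, against 0.319%. With the block 4 of 10 fell, where 12.4% of all genes fell, and none rose, where 10.2% rose. For the same 4 genes every dox library lay under every no dox library in normalised counts, a pattern found for 1319 of the 13153 tested genes (10%). By FPKM this did not hold for FANCA. The median log2 change of the 10 was -0.22, beside -0.0022 over all tested genes. From bulk RNA, fewer cells in the phases that transcribe these genes and less RNA per cell cannot be told apart.

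FANCI and FANCD2, the ubiquitinated pair, were the members on which the core complex acts. FANCI had 1329.9, 1719 and 1529 normalised counts in the dox libraries numbered 1, 2 and 3, and the no dox libraries had 2438, 2428 and 2263. The highest dox library was thus well under the lowest no dox library. FANCI fell by 0.65 on the log2 scale (SE 0.10, limma adjusted p = 0.0496, with 0.000277 and SE 0.07 under the block), a loss of 36.1%, and it was lower in 3 of 3 pairs. Without the block the call was at the edge of the threshold and was lost when any 1 of the 6 libraries was left out (adjusted p from 0.0706 to 0.197).

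In the dox libraries FANCD2 stood at 483, 684 and 686 normalised counts, and in the no dox libraries at 867, 901 and 816. Dox replicate 1 stood well under the other dox libraries, and the groups did not overlap. The log2 change was -0.50. Its SE was 0.14 and its limma adjusted p 0.186 unblocked, short of the threshold, and 0.10 and 0.00662 within pairs. In pairs 1, 2 and 3 it was -0.84, -0.40 and -0.25, so FANCD2 was lower each time but by unequal amounts. The changes of FANCI in the same pairs were -0.87, -0.50 and -0.57. The log2 change of FANCI minus that of FANCD2, a comparison chosen after the values were seen, was -0.03, -0.10 and -0.31 in these pairs. It thus had the same sign in 3 of 3 pairs. An exact permutation over all 20 assignments of libraries to groups, which ignored the pairs, gave p = 0.2 (two-sided) for the mean difference of -0.15. The smallest p this permutation could give was 0.1.

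**Figure D1:**
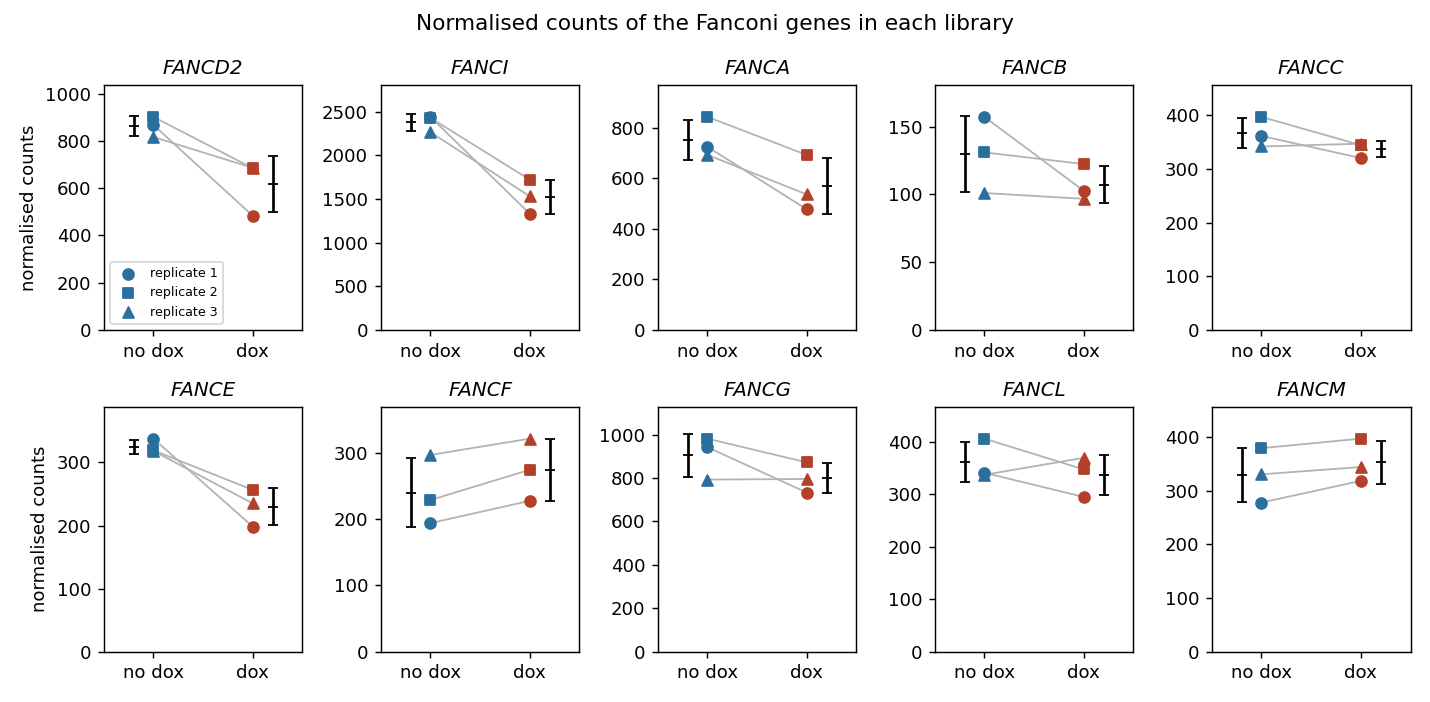
Normalised counts (vertical axis, from 0) of the 10 Fanconi genes in the 3 no dox (blue) and 3 dox (red) libraries, with lines joining libraries of the same replicate number and bars for mean ± SD. All dox points lie under all no dox points for FANCD2, FANCI, FANCA and FANCE, while FANCF and FANCM are slightly higher in dox in each pair.

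Within the core complex the changes were uneven. FANCE, the subunit that contacts FANCD2, was at 198, 256 and 235 normalised counts with dox, and without it at 338, 319 and 318, so the groups were well apart. Its log2 change was -0.51, with a limma adjusted p of 0.127 (SE 0.13) unblocked and, passing, of 0.00687 (SE 0.10) within pairs. FANCA, a large scaffold subunit that binds FANCG, had 477, 692 and 536 counts in dox and 725, 843 and 693 in no dox. Its highest dox library and lowest no dox library were nearly level. By FPKM the groups of FANCA overlapped, with dox replicate 2 at 0.717 and no dox replicates 1 and 3 at 0.703 and 0.663. The log2 change of FANCA was -0.42 (SE 0.15, limma adjusted p = 0.290), and with the block it passed (SE 0.07, adjusted p = 0.00350). Both genes were lower in 3 of 3 pairs, as were 3743 of the 13153 tested genes.

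FANCG, FANCB, FANCC and FANCL had negative changes that passed neither with nor without the block. FANCG, an adaptor rich in tetratricopeptide repeats, had 733, 872 and 796 counts in dox and 942, 981 and 793 in no dox. Pairs 1 and 2 were lower and pair 3 was level, and the log2 change was -0.18 (SE 0.11, limma adjusted p = 0.595, or 0.112 with the block). FANCB, which is X-linked and forms the catalytic module with FANCL and FAAP100, was the least sequenced member with 49 to 221 reads per library. Normalised counts of FANCB were 103, 122 and 96.8 with dox, and 157, 131 and 101 without. Its log2 change was -0.26 (SE 0.20, limma adjusted p = 0.677, or 0.222 with the block), with -0.61 in pair 1 against -0.10 and -0.06 in the others.

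FANCC, which forms a module with FANCE and FANCF, had 320.0, 344 and 347 counts in dox and 361, 397 and 342 in no dox, a change of -0.12 (SE 0.10, limma adjusted p = 0.724, or 0.321 with the block). The ubiquitin ligase subunit FANCL had 295, 348 and 370.0 counts in dox and 341, 407 and 338 in no dox, a change of -0.10 (SE 0.13, limma adjusted p = 0.836, or 0.467 with the block). In both genes the groups overlapped, and pair 3 went the other way from pairs 1 and 2.

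FANCF and FANCM had positive changes, with neither passing the test. FANCF, an intronless gene for an adaptor subunit, had 227, 274 and 321 counts in dox and 194, 228 and 296 in no dox. Libraries numbered 1 were lowest and those numbered 3 highest in both groups, and the spread between numbers exceeded the difference between groups. The log2 change of 0.20 had an SE of 0.19 without the block and 0.09 with it (limma adjusted p = 0.755 and 0.121), and 3 of 3 pairs were higher. FANCM, the DNA translocase that anchors the complex, had 318, 397 and 344 counts in dox and 278, 379 and 331 in no dox. Its change was 0.11 (SE 0.15, limma adjusted p = 0.848, or 0.358 with the block).

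**Figure D2:**
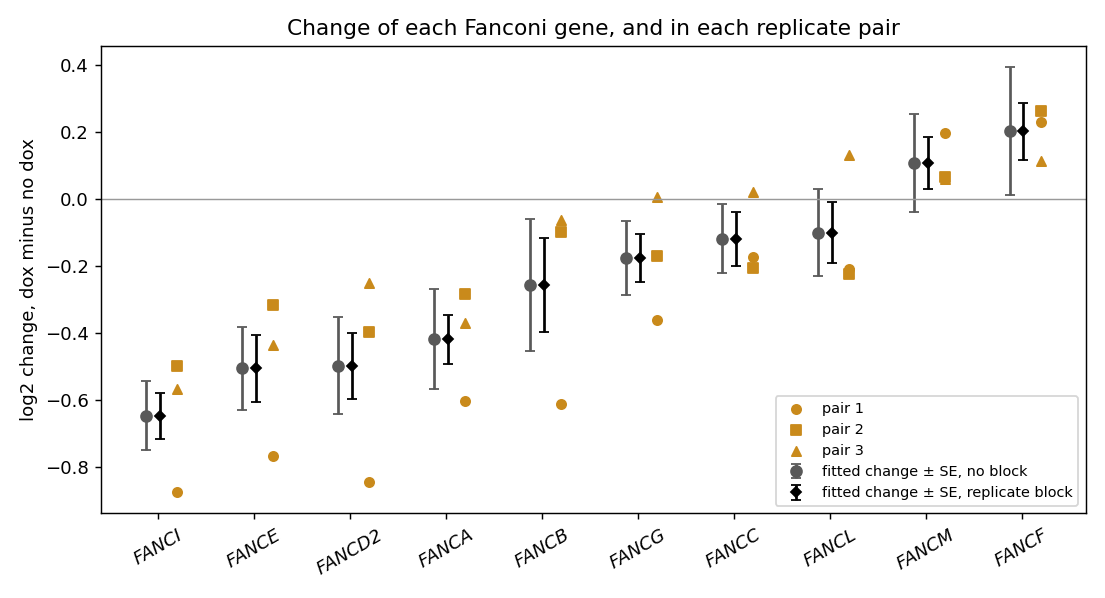
Log2 change (dox minus no dox) of each Fanconi gene: fitted values with SE bars without the block (circles) and with it (diamonds), and the difference in each of the 3 replicate pairs (orange). Pair 1 gave the most negative change for 6 genes, among them FANCI (-0.87) and FANCD2 (-0.84), and FANCF and FANCM lie above 0 in all pairs.

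The sizes differed between pairs. The median change over the 10 members was -0.48 in pair 1, -0.21 in pair 2 and -0.03 in pair 3. Without pair 1 the block fit gave a median of -0.09, without no dox replicate 3 the fit without the block gave -0.35, and without no dox replicate 1 it gave -0.14. FANCI, FANCD2, FANCE and FANCA were the 4 members called with the block whichever pair was left out. Of the 13153 tested genes, 2074 fell without pair 1, 830 without pair 2 and 1007 without pair 3. Each of these fits rested on fewer libraries and fewer residual degrees of freedom than the full block fit, in which 1627 genes fell. More genes fell without pair 1 than in the full block fit, so leaving out a pair was not a stricter check. With pair 1 left out the log2 changes of FANCI, FANCD2, FANCE and FANCA were -0.53, -0.32, -0.38 and -0.33, in that order. In the authors' deposited table FANCI was the 1 member with an adjusted p under 0.05 (8.60e-05, log2 fold change -0.63), where 1.52% of the genes listed were lower at that threshold. FANCD2 had -0.47 with an adjusted p of 0.0913 in the authors' deposited table.

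The start-site sequences of 9 members were found in RefSeq (GRCh38.p14), and FANCI was the member without an entry. They are shown because 3 of the genes that fell with the block (FANCD2, FANCE and FANCA) can be set beside FANCC, which was not called. FANCC is the only uncalled member in which an E2F-type string, described below, was found. Each run covers 200 bases before to 10 bases after the annotated start, 5′ to 3′ on the gene's strand, with any match to a searched motif in capitals.

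FANCD2 (chr3:10026237-10026446, plus strand): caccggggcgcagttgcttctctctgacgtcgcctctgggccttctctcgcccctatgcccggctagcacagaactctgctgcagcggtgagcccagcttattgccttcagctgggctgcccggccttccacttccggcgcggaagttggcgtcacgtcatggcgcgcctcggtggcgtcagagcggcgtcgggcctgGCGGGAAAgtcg
FANCE (chr6:35452138-35452347, plus strand): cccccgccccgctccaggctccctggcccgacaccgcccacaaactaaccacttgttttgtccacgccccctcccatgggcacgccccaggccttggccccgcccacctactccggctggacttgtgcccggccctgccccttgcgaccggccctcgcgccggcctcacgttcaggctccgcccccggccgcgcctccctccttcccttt
FANCA (chr16:89816638-89816847, minus strand): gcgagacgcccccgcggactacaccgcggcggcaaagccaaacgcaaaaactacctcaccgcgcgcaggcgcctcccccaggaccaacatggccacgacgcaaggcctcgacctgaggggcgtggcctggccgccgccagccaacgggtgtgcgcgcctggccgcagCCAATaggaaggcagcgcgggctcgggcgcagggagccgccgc
FANCC (chr9:95317700-95317909, minus strand): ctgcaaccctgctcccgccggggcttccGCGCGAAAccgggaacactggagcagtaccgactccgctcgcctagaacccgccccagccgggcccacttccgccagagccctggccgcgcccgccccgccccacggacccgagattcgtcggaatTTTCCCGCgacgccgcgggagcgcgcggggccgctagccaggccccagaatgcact

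Motifs of cell cycle promoters were searched on both strands of windows from 250 bases before to 50 after the start. FANCD2 held TTTCCCGC, an E2F-type letter string, on the minus strand, beginning 2 bases before the start and reading GCGGGAAA in the run above. FANCC held the same string 46 bases before the start and TTTCGCGC, as its complement GCGCGAAA, 172 bases before. Over all 35116 windows 1.63% held TTTCCCGC and 3.35% held any of TTTGGCGC, TTTCGCGC, TTTCCCGC and TTTGGCGG, and these were the 2 of 9 members to hold any. A CCAAT box was found in FANCA (33 bases before the start), FANCF and FANCM, against 34.6% of all windows. TTTGAA, a cell cycle homology string, was found in FANCC alone (15.2% of all windows). Its variant TTTAAA (12.2%) and the forkhead strings TGTTTAC (3.42%) and TAAACA (12.3%), which overlap each other where they read GTAAACA, matched in 0 of 9. The matches are descriptions of these windows, and E2F-type strings were held by a gene that fell and by one that was not called. FANCE and FANCA, which fell with the block, and the other uncalled members held none, and FANCI had no window.

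Levels can be set beside each other only per length, and the order depended on the length used. The FPKM values divide by the gene width of the comparison table, which was as long as the main GENCODE 29 transcript for FANCE (2554 bases) but 6.38 times as long for FANCA and 6.25 times for FANCI. By FPKM, FANCE was highest in no dox (4.34 ± 0.17, SD, n = 3), before FANCG (3.72 ± 0.51), FANCI (2.75 ± 0.18) and FANCF (2.48 ± 0.52). FANCL (1.16 ± 0.16), FANCD2 (0.97 ± 0.08), FANCC (0.81 ± 0.09), FANCA (0.74 ± 0.10), FANCB (0.48 ± 0.11) and FANCM (0.41 ± 0.07) followed. Libraries of neighbours in this order overlapped except between FANCG and FANCI, FANCF and FANCL, and FANCA and FANCB.

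Per kilobase of the main transcript, a length chosen after the FPKM order was seen, FANCI led the no dox libraries with 17.2 ± 1.10 CPM per kilobase (SD, n = 3). FANCG (11.7 ± 1.60), FANCL (7.34 ± 1.02) and FANCD2 (5.63 ± 0.44) came next, each with libraries apart from those of the gene before it. FANCD2, FANCA (4.72 ± 0.64) and FANCE (4.34 ± 0.17) overlapped from one to the next, as did FANCF (2.78 ± 0.59) with FANCC (2.72 ± 0.29) and FANCM (1.58 ± 0.28) with FANCB (1.46 ± 0.35). FANCE, first by FPKM, was thus sixth on this scale. In dox FANCI was still highest, at 11.3 ± 1.76, and its range (9.67 to 13.2) overlapped that of FANCG (9.55 to 11.96), although FANCI was above FANCG in each of the 3 libraries.

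**Figure D3:**
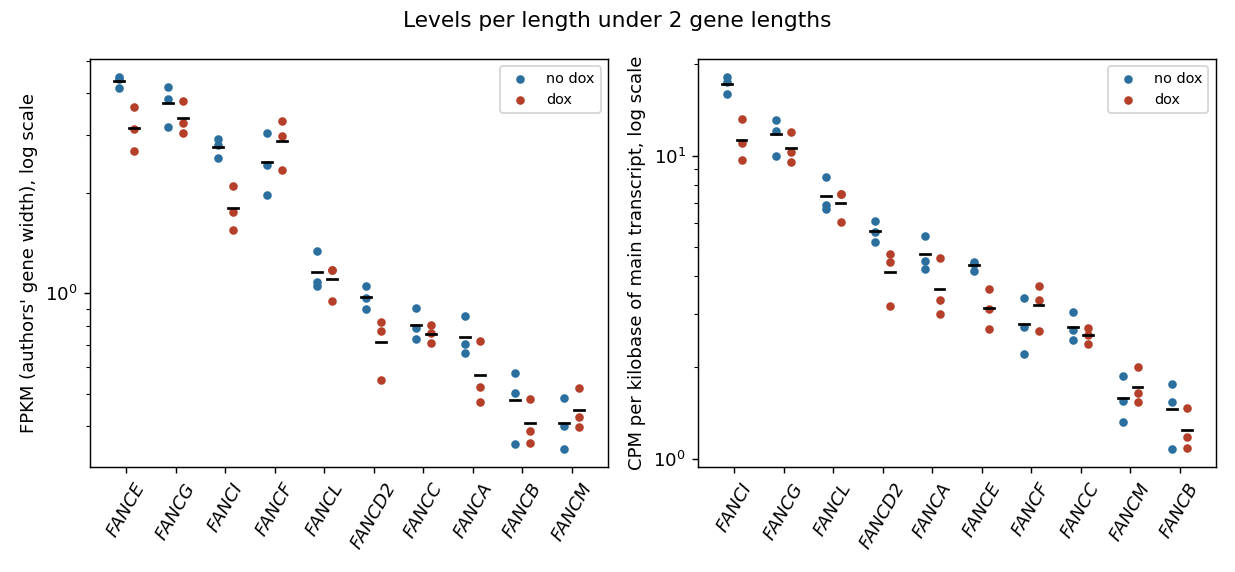
Level per length of each Fanconi gene on log axes, as FPKM with the authors' gene width (left) and as CPM per kilobase of the main GENCODE 29 transcript (right), with 3 points and a mean line per group. FANCE leads the no dox libraries at 4.34 FPKM on the left and FANCI at 17.2 CPM per kilobase on the right.

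The reads behind these genes ran from 49 for FANCB in no dox replicate 3 to 3095 for FANCI in dox replicate 2. Within the spans that the table gives on hg19, FANCI (chromosome 15, 89787180 to 89860492) shares 959 bases with POLG on the opposite strand. FANCA (chromosome 16, 89803957 to 89883065) shares 3355 bases with ZNF276, and FANCL (chromosome 2, 58386378 to 58468507) shares 678 with VRK2, also on opposite strands. No source used here states stranded counting, and reads in these stretches cannot be assigned to either gene. POLG changed by 0.05, ZNF276 by -0.13 and VRK2 by 0.03 on the log2 scale (limma adjusted p = 0.904, 0.893 and 0.932), and none passed with the block. FANCD2 (chromosome 3, 10068098 to 10143614) has a pseudogene, FANCD2P2, which was listed at 0 FPKM in all libraries.

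Across the 6 libraries FANCI followed FANCE most closely among the members (Pearson r = 0.991) and FANCD2 likewise (r = 0.958 with FANCE and 0.942 with FANCI). FANCM (r = 0.009 with FANCD2) and FANCF (r = -0.117) did not follow them. Among 6537 other genes at or above the median level, the 5 most like FANCD2 were the histone variant gene H2AFZ, RACGAP1 of the central spindle, the CDK inhibitor CDKN2C, the centrosomal kinase NEK2 and ERH (r from 0.993 to 0.995). Those most like FANCI were PPP4R1, ADD3, the kinase PBK, the kinetochore gene NDC80 and anillin, ANLN (r from 0.994 to 0.999). These values describe 6 libraries that share group and replicate number, and no test was made of them.

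Other proteins of the pathway were followed in 7 lists of 44 genes, of which 42 were tested. Of the 42, 1 fell without the block, CLSPN, beside 0.220% of all tested genes, and none rose, beside 0.319%. With the block 14 fell and 3 rose, beside 12.4% and 10.2% of all genes, and the median change was -0.11. By list, 5 of 8 recombination genes fell with the block, and 0 of 2 deubiquitination and 0 of 6 translesion synthesis genes were called. Beside the 12.4% of all genes that fell, lists this small cannot be set apart by a count of 0, and differences between lists were not tested.

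Upstream of the pair, UBE2T, the ubiquitin-conjugating enzyme that serves FANCL, stood at 684 ± 95.8 normalised counts with dox and 816 ± 26.6 without (SD, n = 3 each). Its log2 change of -0.26 passed with the block (limma adjusted p = 0.0247, and 0.393 without). The other 5 partners of the core complex were not called, FAAP100 (listed as C17orf70) among them at -0.12. USP1, which removes the ubiquitin from FANCD2, changed by -0.10 and its cofactor WDR48 by -0.12 (limma adjusted p = 0.178 and 0.165 with the block). Of 9 genes of ATR signalling, which phosphorylates the pair, CLSPN fell by 0.71 on the log2 scale (limma adjusted p = 0.0449, and 0.000276 with the block). With the block the checkpoint kinase CHEK1 (-0.27), the clamp subunit RAD1 (-0.40) and ATRIP (-0.34) fell too, and the kinase ATR itself rose (0.30).

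Downstream, BRCA2 had a log2 change of -0.61 (limma adjusted p = 0.159, or 0.000526 with the block) and was lower in 3 of 3 pairs. With the block BRCA1 (-0.37), the helicase BRIP1 (-0.35) and XRCC2 (-0.35) fell as well, and PALB2, which joins BRCA1 to BRCA2, rose (0.29). Among 7 tested nuclease genes EME1 (-0.62), the partner of MUS81, and DCLRE1A (-0.22) fell with the block and ERCC4 rose (0.26). Of the 4 BLM dissolvase genes RMI1 (-0.50) and TOP3A (-0.21) fell with the block. In translesion synthesis MAD2L2 (-0.18) and REV3L (-0.10) had the smallest adjusted p-values without the block, 0.503 and 0.768.

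Lists of other repair pathways and of the cell cycle were followed in the same way, beside 12.4% of all genes falling and 10.2% rising with the block. Of 7 mismatch repair genes (median -0.0075) none fell and 1, PMS2 (0.33), rose with the block, and MSH6 changed by -0.13. Of 9 end joining genes (median 0.09) none fell and 2 rose with the block, the nuclease DCLRE1C (0.67) and the polymerase POLL (0.28). Counts this small do not set either list apart from all genes. Of 28 G1/S and replication genes (median -0.40) 19 fell and 2 rose with the block, with E2F8 (-1.27) and CDT1 (-0.66) having the smallest adjusted p-values without it (0.0411 and 0.0548). Of 20 G2/M genes (median -0.35) 13 fell and 1 rose with the block, TPX2 (-0.40) and BUB1 (-0.63) among the falls. The members' median of -0.22 lay between those of the mismatch repair and end joining lists and those of the cell cycle lists. The part of the cell cycle genes' shift in the Fanconi result was not tested.

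**Figure D4:**
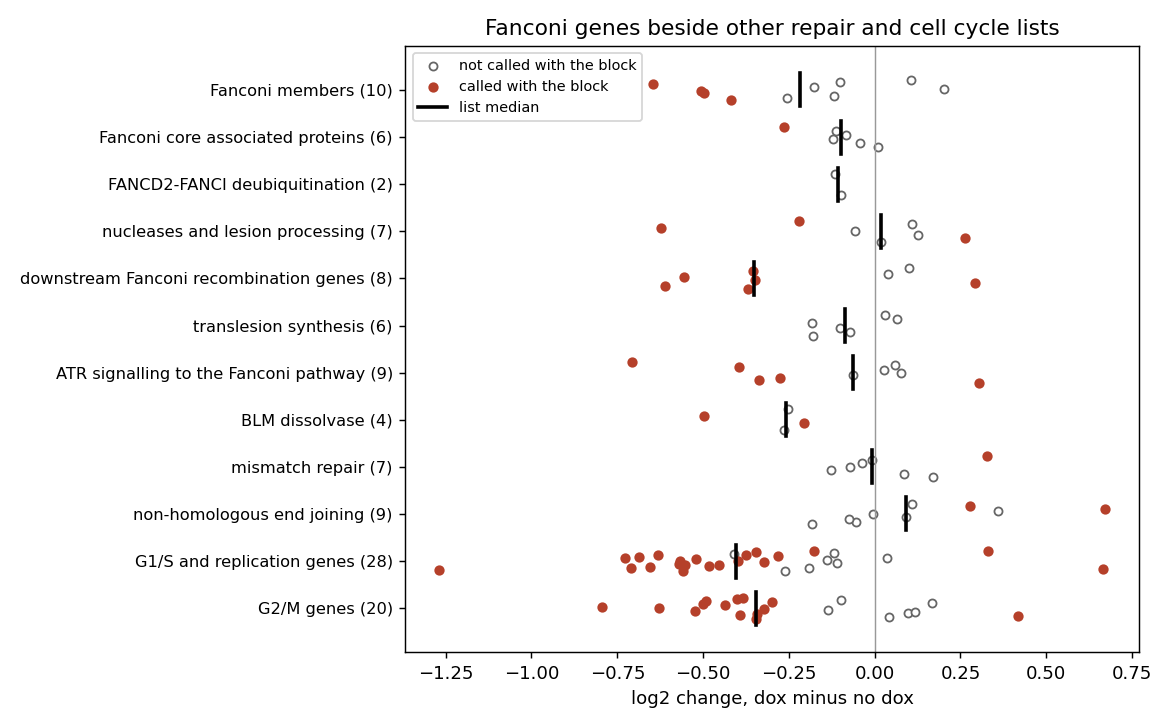
Log2 change (dox minus no dox) of every tested gene in the Fanconi group and in 11 other lists, filled where the gene was called with the replicate block, with the list median as a black line and the number tested in brackets. The medians are -0.22 for the 10 Fanconi genes, -0.35 for the downstream recombination genes, -0.40 for G1/S genes and 0.09 for end joining genes.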

How the data were processed

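RNA of 6 libraries (3 dox, 3 no dox) was poly(A) selected, per the labels' protocols. Tools named in the submitters' processing notes, without versions or roles, are TopHat, Trimmomatic, bcl2fastq and edgeR, and the build is hg19. The authors deposited normalised counts, a depth-equalised signal whose formula no source used here gives, and FPKM values, which equal CPM per kilobase of gene width. Per the file headers, their comparison table holds CPM, a log2 fold change, raw and adjusted p-values and a likelihood ratio score. All CPM values deposited were whole multiples of 1 read (100%, tolerance 0.01), from which reads were recovered.

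Two-sided limma-trend tests were run on log2(normalised count + 1). Genes needed 10 or more normalised counts in 3 or more libraries (13153 kept, 8 removed). Fold changes are on that scale and come out too small for low genes. Adjustment (Benjamini-Hochberg) covered every tested gene, with calls made under 0.05. Deviations of libraries with equal replicate numbers correlated at 0.745, 0.726 and 0.768 across genes, so the numbers were taken to pair the libraries, and the block fit has 2 residual degrees of freedom against 4. On recovered reads edgeR's quasi-likelihood test called 67 genes without the block. Replicates differed by more than sampling noise.

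Named genes were the 10 members, FOXM1, in each list the 2 genes with the smallest adjusted p, all called genes of the Fanconi lists (1 is not reported here), and the 5 genes correlated best with FANCD2 and with FANCI. Members and lists were chosen with earlier results of these data known. Alternatives were other pseudocounts, filters, scalings, FPKM, edgeR, DESeq2, the block and leaving out libraries or pairs. Versions were DESeq2 1.42.0, edgeR 4.0.16 and limma 3.58.1 under R 4.3.3, with matplotlib 3.10.9 under Python 3.11.15.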

Additional observations from a re-analysis of the deposited data

How the results depend on the processing

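FOXM1 passed in every alternative. Without the block 71 genes changed, and 31 did from FPKM and 519 by DESeq2. With the replicate block 2965 changed, 2977 with TMM factors added, 3058 by edgeR and 1750 by DESeq2. Leaving out 1 library without the block gave 3 to 21 genes, and leaving out 1 pair with the block gave 1414 to 3835. The 1 Fanconi member called without the block, FANCI, became 0 with no filter, from FPKM, with TMM, median-of-ratios or quantile scaling, by edgeR (adjusted p = 0.0501 to 0.132) and with any 1 library left out. FANCI stayed called without the block with other pseudocounts, with a minimum of 50 normalised counts and by DESeq2 (DESeq2 adjusted p = 4.64e-05). The count of members called was 4 in all 7 fits with the replicate block, pairs left out included. These were FANCI, FANCD2, FANCE and FANCA each time, so leaving out libraries or pairs gave 0 to 4. The cause was not tested. The change of FANCM ran from -0.0095 (without no dox replicate 1) to 0.21 (without no dox replicate 2), and no other member changed direction in any setting run. The order of levels changed with the gene length used. Reads per library and gene ran from 49 to 3095, and FANCB, with 49 to 221, is the least precise member.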
